A study of Mus musculus with 4 samples.

Results

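DNA content and library bias were compared between the 2 MspI libraries of a HELP tagging study, one from Emerald-high and one from Emerald-negative mouse embryonic stem cells. They are 2 of the study's 4 libraries, chosen by their labels. The other two were cut with HpaII and were not used here. The cells were MC1-ZE7 of strain MC1 (129S6/SvEvTac) at passage 31, with a reporter named pZscan4c-Emerald, in which the fluorescent protein Emerald marks Zscan4c activity. Both fractions were grown without feeder cells in serum and LIF, carried the reporter and were sorted by its brightness. Each fraction had 1 MspI library, from 1 cell line. No spread between cultures, sorts or preparations could be measured, so effects of the cell fraction and of the library preparation cannot be told apart.

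Zscan4 genes are active in a small, changing set of cells of an embryonic stem cell culture and are known for a role in telomere maintenance and genome stability. MspI cuts CCGG whether or not the central CG is methylated, so its tags count DNA. Each tag is read from 1 end of an MspI fragment, the DNA between neighbouring CCGG sites. A gained chromosome gives more tags in proportion to its copies. In dividing cells early-replicating DNA is present in more copies than late-replicating DNA, and early-replicating regions tend to be rich in genes and in CG. A preparation that recovers fragments of some lengths better than others also changes the counts.

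The libraries held 9372711 (Emerald-high) and 9307616 (Emerald-negative) tags over 1594137 CCGG sites on 21 chromosomes. Wherever a pair of library values is given below, Emerald-high comes first. Log2 ratios are Emerald-high over Emerald-negative after scaling to these totals, with 95% exact binomial (Clopper-Pearson) intervals. The intervals cover counting error only, because they are computed from the tags of 1 library per fraction. The tags carry no molecular identifiers. Tags were found at 69.5% of sites in each library, in both at 65.5% and in neither at 26.5%. A tag was present in Emerald-high cells alone at 63798 sites and in Emerald-negative cells alone at 64431. Site counts had a Spearman correlation of 0.87 between the libraries over all sites, which share chromosomes and are not replicates. At sites with 20 to 39 tags in the libraries together, their difference had 1.34 times the variance of binomial counting. At the 180 sites with 160 or more it had 15.2 times that variance. Both values are for whole-tag sites, where neither library has a fraction of a tag.

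The ratio between the libraries varied with the length of the MspI fragment, over a wider range than with CCGG density. Each site's count is deposited in 2 parts, which the data placed on the 2 sides of the cut. Where another CCGG lay less than 20 bp away on the low-coordinate side, the first part averaged 0.0415 and 0.0392 tags and the second 1.68 and 1.57. With the neighbour on the high-coordinate side, the first part averaged 1.65 and 1.52 and the second 0.0323 and 0.0297. The first part was therefore taken as the tags of the fragment on the low-coordinate side, and the second as those of the fragment on the other side. Adding the tags of both ends gave a count for each fragment.

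Fragments shorter than 24 bp gave few tags in either library. Whole-tag fragments of 23 bp gave 0.916 and 0.702 tags, those of 24 bp gave 2.52 and 1.84, and those of 25 bp gave 4.65 and 3.62. Among the length classes, mean tags per whole-tag fragment were highest from 60 to 99 bp, where the classes gave 7.93 and 7.48 or 7.96 and 7.13, and at 200 to 249 bp, with 8.00 and 7.04. They fell to 3.26 and 3.60 from 600 bp to below 800 bp and rose again to 6.08 and 6.56 from 3000 bp to below 5000 bp. These class means include a few frequent lengths with few tags, described below. The class from 140 bp to below 200 bp, with 6.18 and 5.29, holds 150 and 156 bp. In steps of 25 bp, the step from 175 bp gave 8.56 and 7.32, and that from 200 bp gave 8.58 and 7.49. The step from 75 bp gave 7.75 and 6.98. The step from 600 bp, which holds 614 bp, gave 1.98 and 2.16, and the next gave 3.74 and 4.15. The ratio between the libraries also changed with length.

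Short fragments had relatively more tags in the Emerald-high library and long ones fewer. At 24 to 29 bp there were 114091 and 85596 tags, a log2 ratio of 0.40 (0.392 to 0.417) or 1.32-fold. The ratio was 0.37 (0.363 to 0.383) from 30 to 39 bp. It dropped from 0.35 for fragments of 40 bp to 0.05 for those of 48 bp, and was 0.013 (0.005 to 0.021) from 50 to 59 bp. A second peak of 0.21 (0.208 to 0.218) lay between 140 and 200 bp. From 350 bp to below 400 bp the ratio was -0.003 (-0.012 to 0.006). Its lowest value was -0.17 (-0.173 to -0.159), from 800 bp to below 1000 bp, with 3.85 and 4.28 tags per whole-tag fragment. For longer fragments it was nearer 0, with -0.12 from 3000 bp, -0.05 from 5000 bp and -0.006 (-0.015 to 0.004) from 10000 bp upward. Ratios were thus above 0 in every class below 350 bp and below 0 in every class from 400 bp to below 10000 bp, with the intervals clear of 0.

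**Figure D1:**
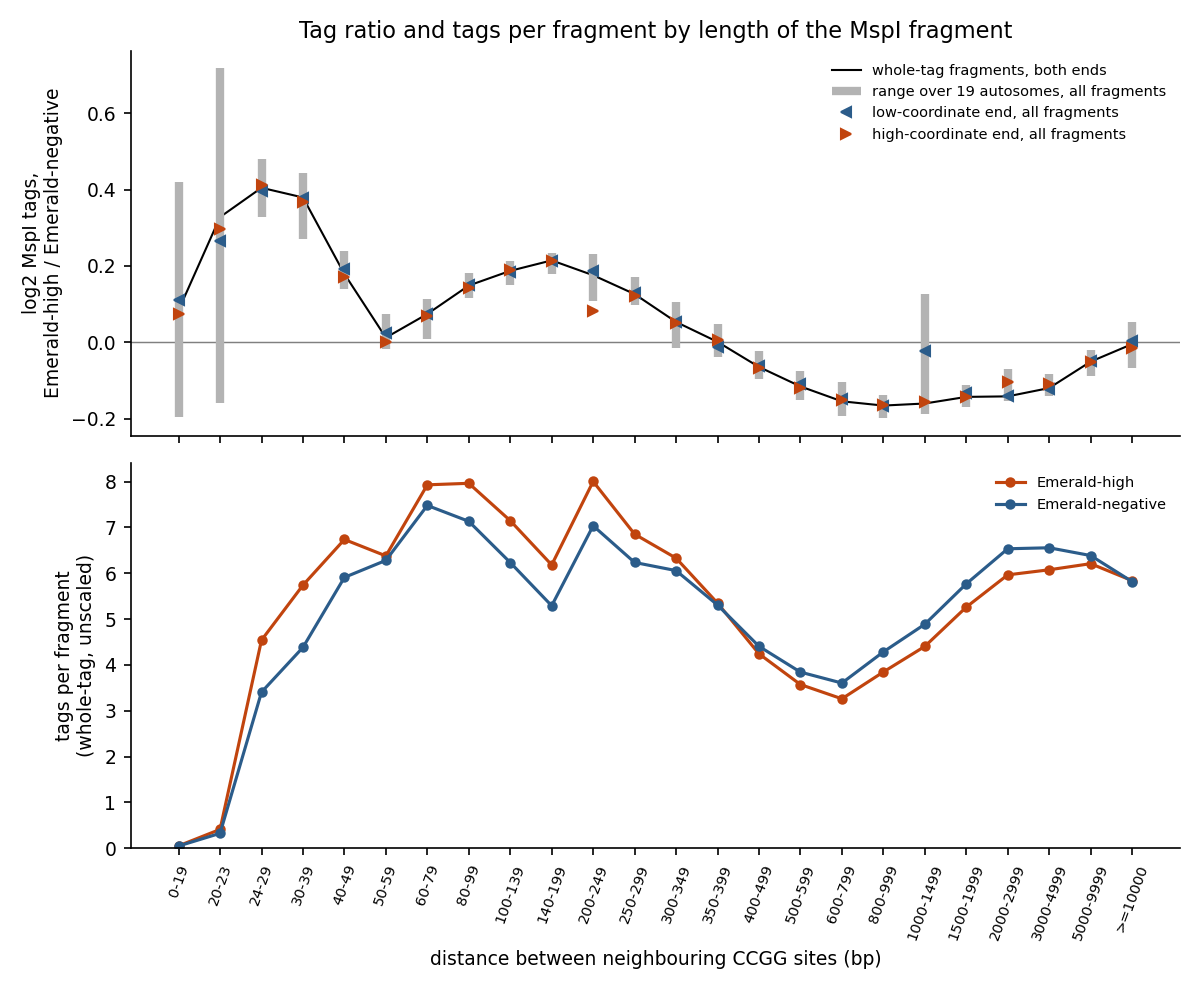
Upper panel: log2 ratio of scaled MspI tags (y axis) by fragment length (x axis, bp) for whole-tag fragments (line), for each end of all fragments (triangles) and as the range over 19 autosomes (grey bars). Lower panel: unscaled tags per whole-tag fragment in each library. The ratio peaks at 0.40 and again at 0.21 and reaches -0.17; single triangles off the line are classes that hold an end of the 3 most tagged sites, all on chromosome 2.

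The 19 autosomes shared this profile. Between 140 and 200 bp their ratios ran from 0.18 to 0.23 (SD 0.015), with 19 of 19 above 0. Between 800 and 1000 bp they ran from -0.20 to -0.14 (SD 0.016), with 0 of 19 above 0. Since the autosomes come from the same libraries, their spread says nothing about another preparation. The class from 1000 bp to below 1500 bp ran from -0.19 to 0.13, and its highest autosome was chromosome 2, where a fragment of 1308 bp ends at the most tagged site, described below. At whole-tag fragments this class stood at -0.16. Within a library, the tags at the 2 ends of a fragment had Spearman correlations of 0.52 and 0.52 from 30 to 99 bp, and of -0.023 and -0.0078 from 500 bp to below 1000 bp. Fragments are not independent replicates, and these values are a description.

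A site has a fragment on either side, so the length of a tag's own fragment could be set against that of the fragment across the cut. Tags from fragments of 24 bp to below 200 bp had ratios of 0.21, 0.16, 0.15 and 0.16 as the fragment across the cut went from below 200 bp to below 500, below 2000 and 2000 bp or more. Tags from fragments of 500 bp to below 2000 bp had -0.14, -0.16, -0.16 and -0.14 in the same order. The sign followed the own fragment in every combination. At 172711 cuts with a fragment below 200 bp on one side and one of 500 bp to below 2000 bp on the other, the short side gave 687091 and 612815 tags, a ratio of 0.15 (0.150 to 0.160). The long side of the same cuts gave 301465 and 329686 tags, a ratio of -0.14 (-0.146 to -0.132). The same positions in the genome thus had relatively more tags on one side and fewer on the other.

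**Figure D2:**
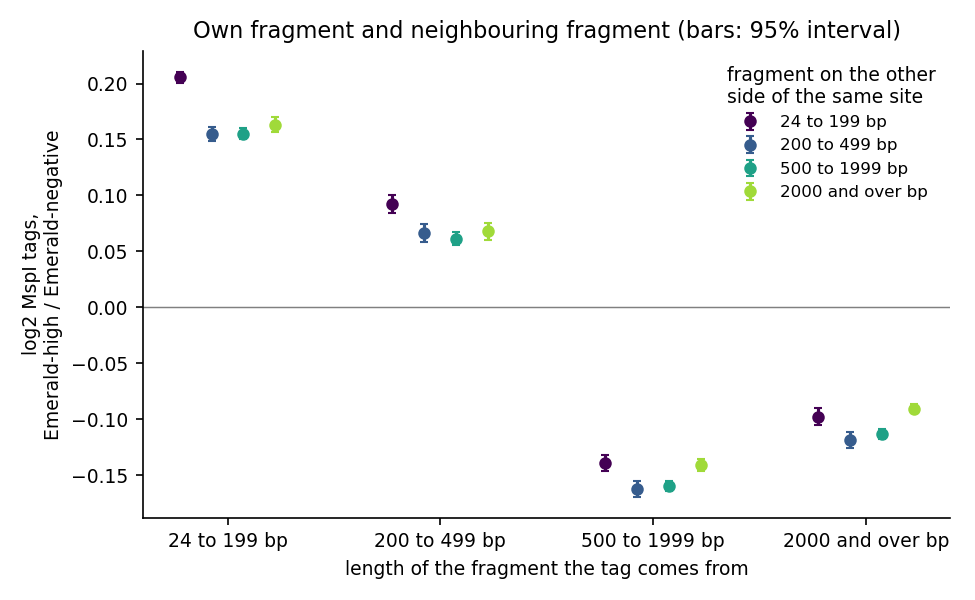
Log2 ratio of scaled MspI tags (y axis, bars are 95% exact binomial intervals) by length of the tag's own fragment (x axis) and of the fragment across the same cut (colours), whole-tag sites. The 4 colours lie at 0.06 or above for own fragments below 500 bp and at -0.09 or below for longer ones.

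A few exact lengths were carried by many fragments. Fragments of 150 bp numbered 18398, against a mean of 1774 per length within 10 bp on either side. They had 0.748 and 0.634 tags each, while the nearby lengths had 6.33 in the Emerald-high library. Fragments of 614 bp numbered 9953 and had 0.252 and 0.270 tags. Of the 8 most frequent lengths, 5 had a ratio whose interval contained that of the nearby lengths, among them 150 bp with 0.23 (0.194 to 0.266) against 0.20 and 614 bp with -0.11 (-0.192 to -0.034) against -0.13. The other 3 departed from it. At 24 bp the ratio was 0.46 (0.432 to 0.497) against 0.38, and at 117 bp 0.14 (0.104 to 0.179) against 0.19. At 50 bp the ratio was 0.0039 (-0.022 to 0.029) against 0.088, but the lengths within 10 bp include the steep drop described above. Among whole-tag fragments, 50 bp stood at 0.0064 (-0.020 to 0.033), near 49 bp at 0.016 and 51 bp at 0.017.

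The ratio also rose with CCGG density, counted within 500 bp either side of a site and including it. Isolated sites, with no other CCGG in that window, had 5.95 and 6.33 tags per site and a ratio of -0.10 (-0.102 to -0.098). The ratio was 0.036 (0.034 to 0.038) for 2 to 4 CCGG and 0.16 (0.152 to 0.162) for 5 to 9. Dense sites, with 10 or more as in many CpG islands, had 2.82 and 2.35 tags per site and a ratio of 0.26 (0.248 to 0.262). A tag was found at 53.2% and 50.7% of dense sites. Over the autosomes dense sites ran from 0.19 to 0.30, above 0 on 19 of 19. Isolated sites were above 0 on 1 of 19, chromosome 2, at 0.004, which stood at -0.14 when restricted to whole-tag sites.

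Much of the density trend was absent at equal fragment length. For whole-tag sites, the tags expected in Emerald-high cells were computed from the Emerald-negative tags and the ratio of each fragment length class. Before this standardisation the classes stood at -0.12, 0.03, 0.16 and 0.26 from isolated to dense. After it they stood at -0.0004, -0.011, 0.022 and 0.087. An excess at dense sites therefore remained. Tags from fragments below 200 bp had ratios of 0.15 with 2 to 4 CCGG, 0.19 with 5 to 9 and 0.27 (0.263 to 0.278) at dense sites. For fragments of 200 bp to below 500 bp these were 0.06, 0.14 and 0.20. For fragments of 500 bp to below 2000 bp all 4 density classes were below 0. They ran from -0.15 at isolated sites to -0.11 (-0.130 to -0.084) with 5 to 9 CCGG. Dense sites had -0.14 (-0.210 to -0.079) there, an interval that contained the value of isolated sites. Base composition was not measured here.

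**Figure D3:**
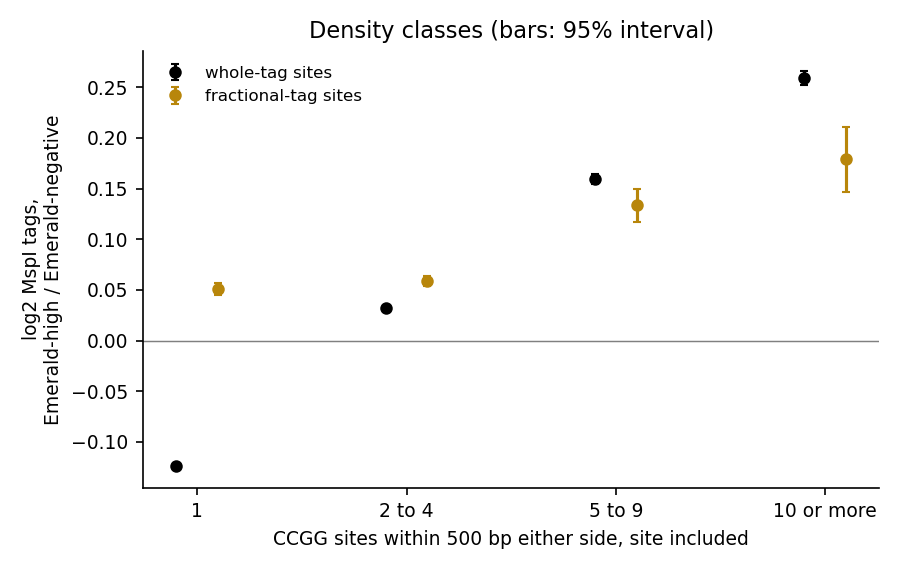
Log2 ratio of scaled MspI tags (y axis) by number of CCGG within 500 bp either side (x axis) at whole-tag and fractional-tag sites; bars are 95% exact binomial intervals. Whole-tag sites go from -0.12 to 0.26 and fractional-tag sites from 0.05 to 0.18. Without the 3 most tagged sites of the genome, isolated fractional-tag sites stood at -0.067 (-0.077 to -0.057), which is not drawn.

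No autosome differed between the fractions by as much as a gain in 1 cell of 10 would give. An extra copy of a chromosome with 2 copies, in 10% of cells, adds 5% to its tags, or 0.07 on the log2 scale. The 19 autosomes had a mean ratio of -0.0054 (SD 0.016). The highest were chromosome 2 at 0.04 (0.036 to 0.043), 11 at 0.019 (0.014 to 0.024) and 17 at 0.017 (0.011 to 0.024). The lowest were 13 at -0.024 (-0.030 to -0.017), 14 at -0.021 (-0.028 to -0.014) and 6 at -0.020 (-0.026 to -0.014). Restricted to whole-tag sites, chromosome 2 stood at -0.018, while 11 and 17 stood at 0.020 and 0.018. Over the 19 autosomes, points from the same pair of libraries, the whole-tag ratio had a Pearson correlation of 0.67 with the percentage of dense sites, which ran from 7.19% on 13 to 9.56% on 11. Standardised by fragment length, the autosomes had an SD of 0.0065 and ran from -0.0092 on 13 to 0.015 on 11.

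Chromosome 8 stood far above the other autosomes in both libraries. It had 7.47 and 8.12 tags per isolated whole-tag site. The other 18 autosomes ran from 4.74 and 5.14 on chromosome 14 to 5.70 and 6.13 on chromosome 11. Chromosome 8 was at 1.41 and 1.42 times their median, and their own SD on this relative scale was 0.044 in each library. With 3 copies in place of 2 in every cell the ratio would be 1.5. Gain of chromosome 8 is a known change in cultured mouse embryonic stem cells, and the labels give no karyotype. Adjusted for fragment length and for the CCGG content of the surrounding megabase, it was at 1.40 and 1.40 times the median of the others.

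The higher level extended over most of chromosome 8. Of its 121 megabases with enough sites, 108 lay above the median of 2051 megabases of the other autosomes in each library, and 100 and 98 lay above their upper quartile. Its median level was 1.39 and 1.39 times theirs. In steps of 10 Mb, medians ran from 1.18 to 1.55 in the Emerald-high library between 10 and 130 Mb. They were 0.969 and 0.952 in the 6 bins below 10 Mb, and 1.91 and 1.93 in the last 2 bins. Between the fractions chromosome 8 stood at -0.0038 (-0.0086 to 0.0011), so no difference in its amount was detectable at this depth.

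X and Y were at lower levels. X had 2.49 and 2.63 tags per isolated whole-tag site, or 0.472 and 0.460 of the median autosome. The 394 such sites of Y had 3.19 and 3.15, or 0.604 and 0.551. Between the fractions X stood at 0.0014 (-0.0080 to 0.011) over all sites and Y at 0.10 (0.042 to 0.159), from 4892 and 4530 tags. Standardised by fragment length, X stood at 0.018 and by density at 0.026, above the highest autosome on each scale (0.015 and 0.012, both chromosome 11). No interval was computed on either scale. The interval of X over all sites is wider than its gap to chromosome 11 on the fragment scale. Restricted to whole-tag sites, Y stood at 0.039.

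**Figure D4:**
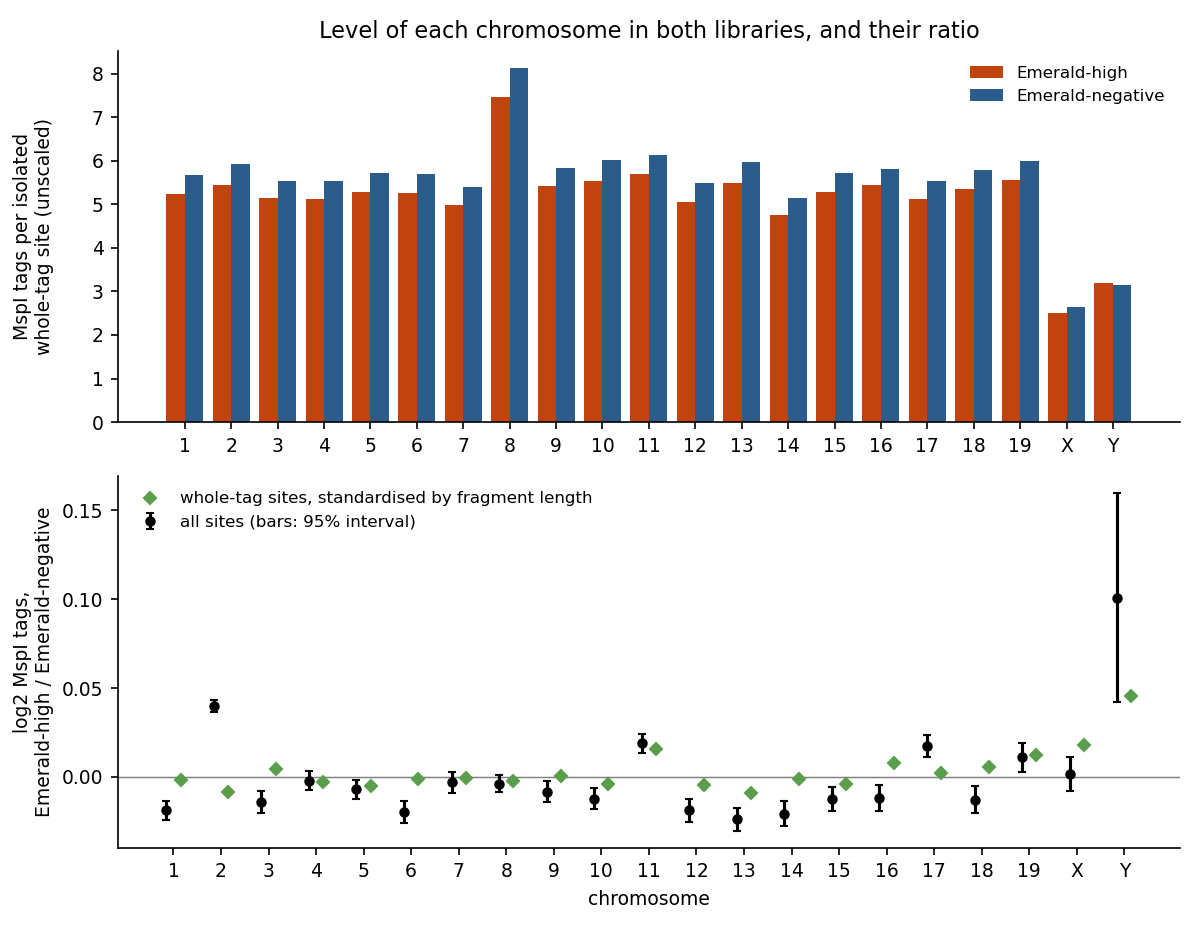
Upper panel: unscaled MspI tags per isolated whole-tag site (y axis) for each chromosome in both libraries; chromosome 8 stands above the other autosomes, X and Y below. Lower panel: log2 ratio between the libraries for all sites, with 95% intervals, and for whole-tag sites standardised by fragment length, where the autosomes run from -0.0092 to 0.015.

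The last megabase of X (chrX:166000001-167000000, mm9) departed from the rest of X. Without the 0.1% most tagged sites of the genome, 195 whole-tag sites remained in it. They had 2.01 and 1.74 times the tags of autosomal sites with like fragments and surroundings, against 0.470 and 0.470 for the rest of X. Adjusted for fragment length alone, the level was 1.252 and 1.071, against 0.383 and 0.383 for the rest of X. The pseudoautosomal region, which X shares with Y, lies at this end of the chromosome. Over all sites of this megabase, the ratio between the fractions was 0.15 (0.087 to 0.222), from 3776 and 3369 tags. That of the rest of X was -0.0017 (-0.011 to 0.0079). Fractions of a tag were present at 15.3% of the 248 sites of the last megabase and at 5.51% of sites on the rest of X.

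Megabase by megabase, no local difference of 0.32 on the log2 scale was found. An extra copy in 50% of cells would give that size for DNA otherwise present in 2 copies. Chromosome 8 and X stood at other levels within each library, and the size would differ for DNA with another copy number. Of 2584 bins of 1 Mb with sites, 2336 had at least 1000 tags in each library. Past that size 0 bins (0%) were higher and 0 (0%) lower in Emerald-high cells, and the ratios ran from -0.26 to 0.31. Past 1.1-fold, 14 bins (0.599%) were higher and 24 (1.03%) lower. The SD over bins was 0.054, where counting error alone would give 0.041. Intervals lay above 0 in 122 bins and below 0 in 245, together 15.7% of bins. Coverage was thinner on X, where 72 of 164 bins had enough tags.

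Bins were also standardised for the CCGG density of their sites, at whole-tag sites. Of 2239 bins, 0 (0%) were higher and 0 (0%) lower past 0.32, while past 1.1-fold 63 (2.81%) were higher and 6 (0.268%) lower. Summed over 10 groups of bins ranked by CCGG content, the density-standardised ratio was 0.059 in the poorest and -0.020 in the richest. Standardised by fragment length instead, 45 were higher and 6 lower past 1.1-fold. Density-standardised ratios of neighbouring bins had a Pearson correlation of 0.16 over 2065 pairs, and bins 10 Mb apart had 0.027. Such bins share libraries and CCGG content.

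The highest of these bins was chr4:146000001-147000000 (mm9), with 2368 and 2010 tags at 304 whole-tag sites. Its ratio was 0.27 (0.186 to 0.360), against 0.14 over all its sites without standardisation. The bin before it stood at 0.17 and the bin after it at -0.0003. A large part of the CCGG sites in this chromosome 4 bin held fractions of a tag, so the 0.27 leaves them out. Few sites were left out for this reason in the bins named below on chromosomes 5, 15 and 9. Next came chr5:15000001-16000000 at 0.23 (0.126 to 0.332), with 0.068 before and 0.17 after it, and 0.075 over all sites. The others were chr17:93000001-94000000 at 0.23, chr15:47000001-48000000 at 0.22, with 0.18 before it, and chr9:10000001-11000000 at 0.21. Over all sites these 3 stood at 0.16, 0.13 and 0.10. The lowest was chr3:17000001-18000000, with 1110 and 1299 tags and -0.19 (-0.308 to -0.073), or -0.21 over all sites, between neighbours at 0.046 and -0.020. It was followed by chr3:43000001-44000000 at -0.19, chr11:10000001-11000000 at -0.18, chr14:19000001-20000000 at -0.15 and chr14:16000001-17000000 at -0.15. Over all sites these 4 stood at -0.18, -0.19, -0.13 and -0.17. Of the 10 bins, those on chromosomes 4, 5 and 15 had a neighbour of the same sign beyond 0.1. Bins are given without gene names, because no mm9 annotation was used here.

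Within each library, megabases differed more from one another than the libraries did. Relative to the level set by their fragment lengths, autosomal sites in the 10% of bins poorest in CCGG (22 to 338 sites) had 0.650 and 0.642 times the tags, and those in the richest 10% (1029 to 2104 sites) had 1.18 and 1.19 times. The log2 levels of 2224 bins had a Pearson correlation of 0.99 between the libraries. Neighbouring bins had 0.59 and 0.59, and bins 10 Mb apart had 0.15 and 0.15. The regional profile was thus nearly the same in the fractions. What sets it was not tested.

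A smaller difference between the fractions followed the CCGG content of the megabase at isolated whole-tag sites. Bins were ranked by CCGG content and divided into 5 groups. In the poorest group (22 to 384 sites) isolated sites had 4.48 and 4.66 tags each, a ratio of -0.064 (-0.070 to -0.057). The next 3 groups stood at -0.090, -0.12 and -0.14. In the richest (838 to 2104 sites) isolated sites had 5.69 and 6.30 tags, a ratio of -0.16 (-0.162 to -0.153). The richest group was below the poorest on 19 of 19 autosomes, by a mean of -0.093 (SD 0.021), from -0.12 on chromosome 14 to -0.039 on chromosome 11.

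Isolated sites of rich megabases also had shorter fragments. The median length of the shorter fragment beside them was 909 bp, against 1627 bp in the poorest group. Standardised by fragment length, the groups went from 0.035 in the poorest to -0.019 in the richest, a difference of -0.054. Over all whole-tag sites and 10 groups of bins, the standardised ratio went from 0.037 (0.030 to 0.045) to -0.015 (-0.018 to -0.012). Without standardisation it was -0.0091 in the poorest, -0.022 in the sixth and 0.011 in the richest of the 10. Across 2238 bins the Pearson correlation with log2 CCGG number was -0.31 with standardisation and 0.096 without. Replication timing and cell cycle phase were not measured in these files, and their part in this was not tested.

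**Figure D5:**
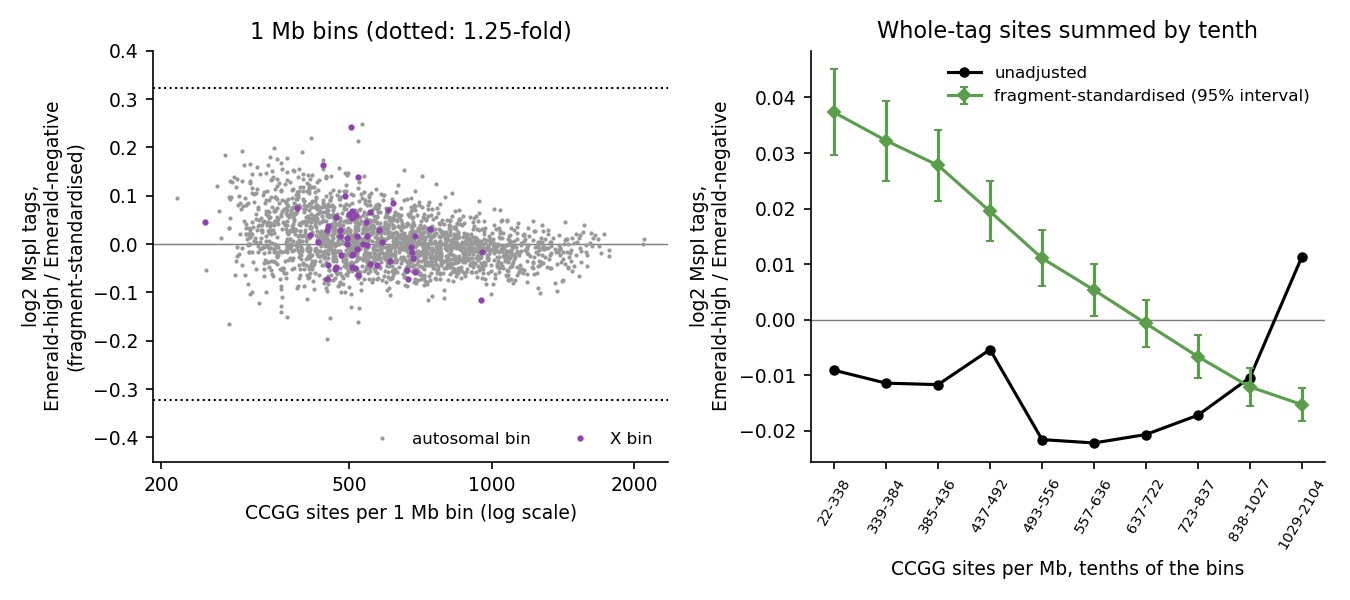
Left: fragment-standardised log2 ratio of each 1 Mb bin (y axis) against its number of CCGG sites (x axis, log scale), X bins in colour; all points lie within the dotted lines at 0.32 and -0.32. Right: ratio of whole-tag sites summed over 10 groups of bins, unadjusted and standardised by fragment length (95% intervals), the latter falling from 0.037 to -0.015.

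X was set against autosomal bins of equal CCGG content at isolated whole-tag sites. In the poorest of the 5 groups X stood at -0.033 (-0.067 to 0.0002) and the autosomes together at -0.065, with 19 of 19 below X. In the next group X was at -0.086 and the autosomes at -0.091, with 10 of 19 below X. In the middle group X was at -0.11 and the autosomes at -0.12, with 16 of 19 below X. The interval of X contained the autosomal value in each of these 3 groups.

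Ends of chromosomes were examined because Zscan4 is known for its role at telomeres. The outermost 2 Mb near the centromere had a ratio of -0.11 (-0.131 to -0.094) at isolated whole-tag sites. The far ends had -0.12 (-0.139 to -0.103), and all other sites had -0.12 (-0.126 to -0.121). Both intervals for ends overlapped that of the other sites. Over 20 chromosomes, the near ends differed from the remainder of their chromosome by a mean of -0.017 (SD 0.125), with 10 above it, and the far ends by 0.011 (SD 0.056), with 15 above it. The lowest near end, on chromosome 14, stood 0.51 below its remainder in log2 terms and rested on 470 sites with few tags. Telomere repeats hold no CCGG and give no tags in this assay.

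Sites with fractions of a tag, where a tag is shared among positions, numbered 41765 and held 13.5% and 12.9% of all tags. They had 30.2 and 28.8 tags per site and a ratio of 0.061 (0.057 to 0.065), against -0.0093 at whole-tag sites. This difference of 0.070 fell to 0.017 with tags capped at 20 per site and turned to -0.011 from the low-coordinate parts alone. The 3 most tagged sites of the genome were among them and held 8.63% and 8.15% of all tags. Without these 3 the ratio was 0.023 (0.017 to 0.029). By density, the remaining fractional-tag sites stood at -0.067, 0.044, 0.13 and 0.18 from isolated to dense, in the same order as whole-tag sites. A site whose shared tags add up to whole numbers is counted as whole-tag.

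These 3 sites lie within a few kilobases on chromosome 2, and their ends differed. Position 98502951 had 346952 and 320490 tags, a ratio of 0.10 (0.097 to 0.111). Its high-coordinate end had 225673 and 195451 tags, a ratio of 0.20, and its low-coordinate end 121279 and 125040, a ratio of -0.054. Position 98506419 had 339937 and 312295 tags, with 0.20 at its high-coordinate end and -0.042 at its low-coordinate end. Position 98506660 had 121643 and 125432 tags, nearly all at its low-coordinate end, with -0.054. That end and the high-coordinate end of 98506419, at 0.20, are the 2 ends of the same fragment of 241 bp. High-coordinate and low-coordinate ends thus stood on opposite sides of 0. Fractional counts mean that positions share tags, so the 3 are not independent of each other.

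The other heavily tagged sites varied one by one. On chromosome 17 a run of 58 of the 0.1% most tagged sites, from 39979959 to 39985698, held 0.442% and 0.373% of all tags, a ratio of 0.24 (0.223 to 0.264). Its single sites ran from -0.47 to 1.02. The lowest of them, at 39980861, had 3175 and 4360 tags. Its end on a fragment of 67 bp stood at -0.55 and its end on a fragment of 205 bp at -0.22, lengths whose classes were above 0 in the genome as a whole. At 22444105 on chromosome 2 there were 2768 and 2867 tags, a ratio of -0.061 (-0.137 to 0.015). Together, the 825 whole-tag sites among the 0.1% most tagged stood at 0.12 (0.107 to 0.131).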

How the data were processed

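Tag counts of both MspI libraries were analysed. The authors deposited estimated counts of tags per CCGG site, as 2 parts and their sum under a library total, per the file headers, with no scaling to depth. Fractions of tags occur. The submitters' processing notes name mm9. The aligner, and the rule for tags with more than 1 match, were not given in the sources used here.

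Sums were scaled to the totals; counts were rounded for intervals only. A site is fractional if a value lies over 1e-06 from a whole number. Standardisation multiplied Emerald-negative tags by the ratio of their density class (15 or more CCGG together) or fragment length class. Levels within libraries left out the 0.1% most tagged sites. With 1 library per group no p-value was computed. Named bins are the 5 highest and 5 lowest standardised ones and named sites the 5 most tagged. Chromosome 8, the last X megabase, the chromosome 17 run, exact lengths and the chromosome 14 end were picked after their values were seen. Members, classes and comparisons were chosen with earlier results of these data known. Scripts were tested on simulated data. Intervals came from scipy 1.17.1 and figures from matplotlib 3.10.9, with pandas 2.3.3 and numpy 2.4.6 under Python 3.11.15.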

Additional observations from a re-analysis of the deposited data

How the results depend on the processing

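No paired analysis was possible because each group had 1 library, so no replicate could be left out either. The SD over autosomes (0.016) was 0.0094 with tags capped at 20 per site, 0.0027 with each tagged site counted once and 0.030 from the high-coordinate part alone. Scaling to isolated sites leaves it as it is by construction. The count of 0 bins past 0.32 became 1 at whole-tag sites, 3 from the high-coordinate part, 3 in 500 kb bins and 38 past 1.1-fold. After density standardisation 0 became 1 from the low-coordinate part, 1 from the high-coordinate part, 6 in 500 kb bins, 2 with a minimum of 200 tags and 69 past 1.1-fold. Both counts were 0 in 5 Mb bins, past 1.5-fold, scaled to the median bin, capped, counted once, and without the 0.1% or the 3 most tagged sites. Alternatives that changed the values of sites kept the bins that pass the main minimum.

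Isolated minus dense sites (-0.36) gave -0.38 at whole-tag sites, -0.37 without the 0.1% most tagged, -0.086 counted once, -0.39 in a 250 bp window and -0.29 in a 1000 bp window. Fragments of 30 to 99 bp minus those of 2000 bp and over (0.232) gave 0.240 at whole-tag sites, 0.238 without the 0.1%, 0.236 without the 3 most tagged sites, 0.219 capped, 0.061 counted once, 0.219 from the low-coordinate and 0.245 from the high-coordinate part. Fractional-tag minus whole-tag sites (0.070) gave 0.021 without the 0.1%, 0.033 without the 3 most tagged sites, 0.017 capped, 0.0069 counted once and 0.15 from the high-coordinate part, and turned to -0.011 from the low-coordinate part, which leaves out the high-coordinate ends of the chromosome 2 sites. The rich minus poor difference (-0.093) gave -0.083 capped, -0.024 counted once, -0.070 with no CCGG within 2000 bp and -0.054 standardised by fragment length. Chromosome ends minus the rest (0.0068) gave 0.026 in the outermost 500 kb. Except as stated, the cause was not tested. The 1.1-fold limit, the minimum of 200 tags, leaving out the 3 most tagged sites, the fragment standardisation of isolated sites and autosomes alone (-0.092) were chosen after seeing the data.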
